A study of Canis lupus familiaris with 2 samples.

Results

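A set of 10 genes that the transcriptional coactivator YAP is known to switch on with its DNA-binding partners, the TEAD factors, were followed one by one in MDCK cells under static pressure. These genes, ANKRD1, CYR61, AMOTL2, AJUBA, AXL, CRIM1, CCDC80, TGFB2, PTPN14 and F3, were chosen by their standing as YAP targets and with the 50-cm over 2-cm FPKM ratios of these same cultures already known, so those ratios describe the genes and were not tested. All 10 were found among the 23510 features listed, and 9 lay above 1 FPKM in both cultures. MDCK is an established dog kidney line that grows as a columnar epithelial sheet. Both groups were grown in EMEM with fetal calf serum on semipermeable membranes, and their RNA was taken on day 3. The control was 1 culture in 2-cm-high medium and the pressure-loaded group was 1 culture in 50-cm-high medium, the medium height setting the static water pressure on the cells. Neither culture has a replicate, and anything else that differed between them, such as cell density, cannot be told apart from the medium height.

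YAP and its relative TAZ have no DNA-binding domain and act in the nucleus through TEAD1 to TEAD4. The Hippo kinases LATS1 and LATS2 phosphorylate YAP, which is then held in the cytoplasm, so that its targets fall when the pathway is on. Several of the targets encode proteins that themselves restrain YAP, and others encode secreted or cell surface proteins through which epithelial cells act on matrix and neighbours.

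In the values that follow, 2 cm and 50 cm stand for the culture in 2-cm-high and in 50-cm-high medium. RNA abundance was measured as FPKM, a read number divided by exon length and by library size, which allows levels of genes of unequal length to be compared. Changes were taken as the 50-cm value divided by the 2-cm value for the 11057 features above 1 FPKM in both cultures. Beside each log2 ratio stands a spread, which is the median absolute deviation, scaled to match an SD, among the log2 ratios of the 500 features with the closest mean log2 FPKM. It is a spread among genes, not an error between cultures. Of the 9 listed renal epithelial markers in the files, 8 were above 1 FPKM in both, among them CDH1, EPCAM, KRT8 and PAX8. The other, CDH16, had 1.96 FPKM at 2 cm and 0.676 FPKM at 50 cm. No fibroblast marker of 7 listed exceeded 0.247 FPKM, no endothelial marker of 5 exceeded 0.277 FPKM, and PTPRC and CD3E of blood cells were listed at 0.

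The targets covered a wide range of abundance and did not move as a block. ANKRD1, AMOTL2, F3 and CYR61 were 1.66-fold to 2.89-fold higher in 50-cm-high medium, between 4.0 and 6.5 spreads above 0. PTPN14, CRIM1, AJUBA, TGFB2 and CCDC80 had ratios of 0.890 to 1.24 and lay within 2 spreads of 0. AXL was barely detected in either culture. A gap of 0.42 on the log2 scale separated the lowest of the first 4 genes from the highest of the other 5. The gap was read with the ratios already known. Other YAP targets lay inside it, among them ASAP1 (log2 ratio 0.41) and MYC (0.61).

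**Figure D1:**
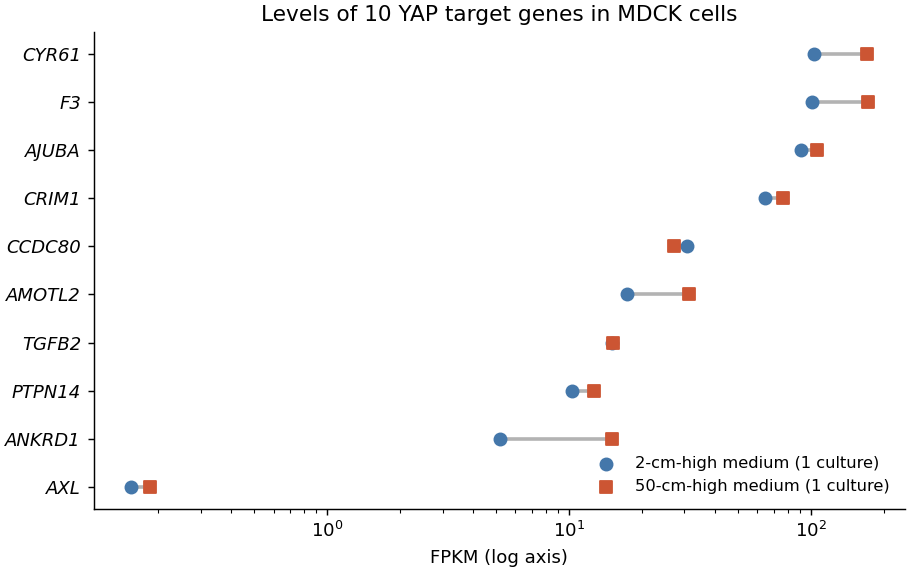
FPKM values (log axis) of the 10 genes in the 2-cm-high-medium culture (circles) and the 50-cm-high-medium culture (squares), joined by a line for each gene and ordered by the level in 2-cm-high medium, with 1 culture per group and no error bars. ANKRD1 has the longest line, from 5.20 to 15.0 FPKM, the markers of TGFB2 lie on each other, and CCDC80 is the gene whose square lies to the left of its circle.

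In 2-cm-high medium CYR61 was the most abundant of the 10 genes at 103 FPKM, followed by F3 at 101 FPKM and AJUBA at 91.1 FPKM. The steps between these 3 neighbours were 0.03 and 0.15 on the log2 scale. The spread is one of ratios between cultures, so it does not say which steps between genes are resolved. CRIM1 (64.8 FPKM), CCDC80 (30.6 FPKM) and AMOTL2 (17.3 FPKM) came next. TGFB2 (15.0 FPKM) stood close below AMOTL2, and PTPN14 (10.2 FPKM), ANKRD1 (5.20 FPKM) and AXL (0.154 FPKM) closed the order. In 50-cm-high medium F3 (172 FPKM) and CYR61 (171 FPKM) stood together at the top, now 0.68 on the log2 scale above AJUBA (106 FPKM). AMOTL2 (31.3 FPKM) passed CCDC80 (27.2 FPKM) by 0.20 on the log2 scale. ANKRD1 (15.0 FPKM) came close to TGFB2 (15.1 FPKM) and passed PTPN14 (12.7 FPKM) by 0.24 on the log2 scale.

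Of the 9 compared genes, 8 were higher in 50-cm-high medium (7 after rescaling to a common sum, where TGFB2 turned), where 52.6% of all compared features were. The 4 genes ANKRD1, AMOTL2, F3 and CYR61 were more than 1.5-fold higher, against 2.13% of all features, and 1, ANKRD1, was more than 2-fold higher, against 0.389%. The same 4 genes lay more than 2 spreads above 0, against 5.02% of all features, and none lay more than 2 spreads below 0, against 5.25%. Since the genes were picked with these ratios in view, the shares are given as background only. The median log2 ratio of the 9 genes was 0.31, and that of all compared features was 0.01. RNA from whole cultures does not separate a change in every cell from a change in the share of cells that make a transcript.

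**Figure D2:**
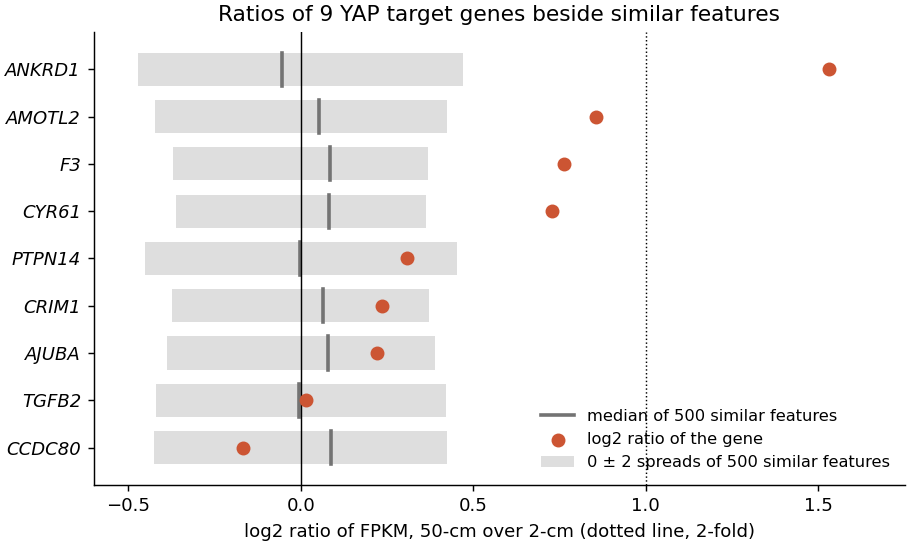
Log2 ratio of FPKM, 50-cm over 2-cm, of the 9 genes above 1 FPKM in both cultures (points), with the span of 2 spreads on either side of 0 among the 500 features nearest in level (grey bars) and the median of those features (grey ticks). The 4 genes at the top lie right of their bars, ANKRD1 beyond the dotted 2-fold line, and the other 5 points lie inside theirs.

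ANKRD1 encodes a muscle ankyrin repeat protein that works as a nuclear cofactor and binds titin in striated muscle, and it is among the most used readouts of YAP activity. It stood at 5.20 FPKM at 2 cm and at 15.0 FPKM at 50 cm, which is 2.89-fold higher (log2 ratio 1.53, 6.5 spreads above 0). None of the 500 features nearest in level had as high a ratio, and the highest of them reached 1.18 on the log2 scale. ANKRD1 was thus the gene with the largest ratio of the 10, although its level stayed below those of CYR61 and F3 in both cultures. Its relatives in the muscle ankyrin repeat family were near the lower limit. ANKRD23 had 1.57 FPKM at 2 cm and 1.81 FPKM at 50 cm, 0.4 spreads above 0. ANKRD2 had 1.47 and 0.581 FPKM and was not compared.

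CYR61, also called CCN1, encodes a secreted matricellular protein that binds integrins and heparan sulfate. Its level was 103 FPKM at 2 cm and 171 FPKM at 50 cm, a ratio of 1.66 (log2 ratio 0.73, 4.0 spreads above 0). Of the 500 features nearest in level, 3 had a ratio at least as high. It was the only member of the CCN family above 1 FPKM among the members found in the files. NOV, WISP1 and WISP3 were listed at 0 in both cultures, WISP2 had 0.0387 FPKM in 2-cm-high medium and was listed at 0 in 50-cm-high medium, and CTGF was not analysed here. A value of 0 does not show that a transcript was absent, since ATP5O, a subunit gene of the mitochondrial ATP synthase, was also listed at 0 in both cultures.

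F3 encodes tissue factor, the cell surface receptor that starts blood coagulation by binding factor VII. It went from 101 FPKM at 2 cm to 172 FPKM at 50 cm, a ratio of 1.70 (log2 ratio 0.76, 4.1 spreads above 0), and 1 of the 500 nearest features had a ratio as high. F3 and CYR61 were close in level and in ratio, differing by 0.04 between their log2 ratios. The genes around tissue factor in the coagulation start that could be compared had lower ratios. F7, F10 and the inhibitor gene TFPI were listed at 0 in both cultures, and the related inhibitor gene TFPI2 had 7.72 and 8.29 FPKM. The protease-activated receptor genes, which answer to coagulation proteases, differed in direction. F2R had 8.71 and 7.78 FPKM (ratio 0.893), and F2RL1 had 24.8 and 32.9 FPKM (ratio 1.33), the latter 1.9 spreads above 0. The thrombomodulin gene THBD was below 1 FPKM, with 0.481 and 0.528 FPKM.

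Of the 10 genes, AMOTL2, PTPN14 and AJUBA encode proteins that bind into the Hippo pathway itself, and they split. AMOTL2, an angiomotin family scaffold of tight junctions that binds YAP and holds it outside the nucleus, had 17.3 FPKM at 2 cm and 31.3 FPKM at 50 cm. The ratio was 1.81 (log2 ratio 0.86, 4.0 spreads above 0), and 4 of the 500 nearest features reached it. Its relative AMOTL1 had 4.73 and 4.70 FPKM (ratio 0.992), and AMOT was listed at 0 in both. AMOTL2 was thus more abundant than AMOTL1 in both cultures.

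PTPN14 encodes a cytoplasmic tyrosine phosphatase that binds YAP and the LATS activator KIBRA. It had 10.2 FPKM at 2 cm and 12.7 FPKM at 50 cm, a ratio of 1.24 and 1.4 spreads above 0. Of the 500 nearest features, 41 (8.20%) had a ratio at least as high. It still had the highest ratio among the phosphatases of its class that were listed. PTPN21, the closest relative, had 13.8 and 14.0 FPKM, PTPN3 had 11.0 FPKM in both, PTPN4 had 3.18 and 2.91 FPKM, and PTPN13 had 31.4 and 27.5 FPKM. KIBRA, listed as WWC1, had 86.8 and 83.7 FPKM. None of these 5 genes lay beyond 2 spreads, where 5.02% of all compared features lay above and 5.25% below.

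AJUBA encodes a LIM domain protein of adherens junctions that binds LATS kinases under tension and limits their activity. Its level was 91.1 FPKM at 2 cm and 106 FPKM at 50 cm, a ratio of 1.17 and 1.1 spreads above 0. Of the 500 nearest features, 108 had a ratio at least as high, so the gene is not set apart from features of its level. The other 5 genes of the Ajuba and Zyxin family had ratios between 0.880 (LPP) and 1.09 (TRIP6). LIMD1 had 11.1 and 9.82 FPKM, WTIP 8.53 and 8.62 FPKM, and ZYX 80.1 and 86.0 FPKM.

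**Figure D3:**
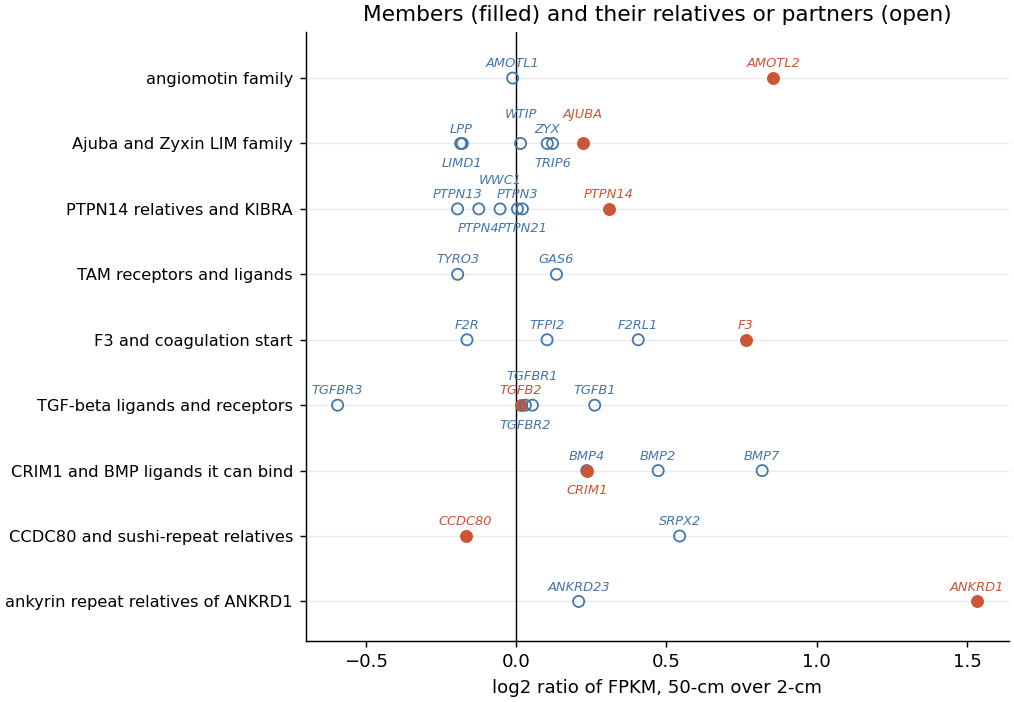
Log2 ratio of FPKM, 50-cm over 2-cm, of compared genes (filled points) and of their family members or binding partners above 1 FPKM in both cultures (open points), 1 row per family (AXL, below 1 FPKM, has no point). AMOTL2, F3 and ANKRD1 lie to the right of every relative in their rows, as do AJUBA and PTPN14. In contrast, CCDC80 lies to the left of SRPX2 and CRIM1 to the left of BMP2 and BMP7. TGFB2 lies to the left of TGFB1, TGFBR1 and TGFBR2.

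The remaining genes encode secreted, matrix and receptor proteins. TGFB2, a ligand of the TGF-beta receptors, had 15.0 FPKM at 2 cm and 15.1 FPKM at 50 cm, a ratio of 1.01 and the least change of the 10 genes. Its log2 ratio of 0.02 turned to -0.02 when FPKM was rescaled to a common sum, so no direction is given for it. TGFB1 had 3.79 and 4.55 FPKM (ratio 1.20), TGFB3 had 0.280 and 0.168 FPKM, and the receptor genes TGFBR1 and TGFBR2 had ratios of 1.04 and 1.02. The coreceptor gene TGFBR3 had 3.45 and 2.29 FPKM (ratio 0.663), which lay 1.5 spreads below 0.

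CRIM1 encodes a membrane protein with cysteine-rich repeats that binds bone morphogenetic proteins in the producing cell. It had 64.8 FPKM at 2 cm and 76.3 FPKM at 50 cm, a ratio of 1.18 and 1.3 spreads above 0. Of the 500 nearest features, 94 had a ratio at least as high. Among the ligands it can bind, BMP7 had the larger ratio, with 11.7 FPKM at 2 cm and 20.7 FPKM at 50 cm (1.76-fold, 4.0 spreads above 0). BMP2 had 4.41 and 6.12 FPKM (ratio 1.39), and BMP4 had 24.3 and 28.5 FPKM (ratio 1.18).

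CCDC80, a secreted matrix-associated protein gene, was the one compared gene that was lower in 50-cm-high medium. It had 30.6 FPKM at 2 cm and 27.2 FPKM at 50 cm, a ratio of 0.890 and 0.8 spreads below 0. Of the 500 nearest features, 427 had a ratio at least as high, and the median of those features was above 0, so CCDC80 lay 1.2 spreads below that median. The sushi-repeat genes related to it in sequence went apart, with SRPX2 at 7.06 and 10.3 FPKM (ratio 1.46, 2.1 spreads above 0, but within 2 after rescaling to a common sum) and SRPX at 1.24 and 0.562 FPKM.

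AXL encodes a receptor tyrosine kinase of the TAM family, whose ligand is GAS6. It had 0.154 FPKM at 2 cm and 0.186 FPKM at 50 cm, too low to be compared with the other genes. Many of the lowest values in the files fall on steps left by whole reads, and each read counted for 9.77% more FPKM in the pressure-loaded culture. After that correction the AXL ratio was that of 11 reads against 10 to within 0.002%. Multiples of these numbers give the same ratio, and 62.3% of features below 1 FPKM in both cultures lay at a ratio that pairs of up to 20 reads give, against 131 of the 8751 features above 5 FPKM. If the reads were 10 and 11, the AXL ratio of 1.21 has a 95% exact binomial interval of 0.466 to 3.17 from counting alone. A difference would then not be detectable, but the actual read number of AXL is unknown. Among the TAM receptor genes, TYRO3 was the one above 1 FPKM, with 8.09 and 7.07 FPKM, and MERTK was listed at 0. Of the ligand genes, GAS6 had 1.02 and 1.12 FPKM and PROS1 was listed at 0. The ratios of GAS6 and of THBD equalled the 9.77% step, as equal read numbers in both cultures would give.

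The 9 compared genes did not lie at ratios of so few reads. For ANKRD1, the compared gene with the lowest level in 2-cm-high medium, no pair with fewer than 145 reads in that culture gave its ratio to within 0.002%. At 145 and 382 reads, the 95% exact binomial interval of the ratio would be 2.38 to 3.53. This interval holds only if whole reads were counted and the effective length was equal in both cultures, and it covers counting error only. The smallest pair did not follow the level of a gene. At 2 cm it was 89 reads for ACTG1 (1807 FPKM), but 426 for FHL1 (0.997 FPKM) and 4556 for TPM2 (0.0754 FPKM). The 145 is therefore no estimate of the reads of ANKRD1, and the interval is an illustration only. Whether whole reads were counted for every gene was not tested.

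Other known YAP targets were set beside these genes. Their 2 lists were also chosen with earlier results of these data known, so the shares given with them are background only. Of 13 further genes that share a published YAP signature with most of these genes, 8 were above 1 FPKM in both cultures, and all 8 were higher in 50-cm-high medium, as were 52.6% of all compared features, with ratios of 1.06 to 1.81. Among them, 4 genes, FJX1, NUAK2, ASAP1 and GADD45A, lay more than 2 spreads above 0, where 5.02% of all compared features lay. FJX1, which encodes a secreted regulator of planar polarity, had 3.93 and 7.11 FPKM (ratio 1.81), and NUAK2, a kinase gene of the AMPK family, had 19.6 and 28.4 FPKM (ratio 1.45). ASAP1 (ratio 1.33) and GADD45A (ratio 1.31) lay at 2.1 spreads each and fell within 2 spreads when FPKM was rescaled to a common sum, after quantile normalization and when the deviation was taken from the median of similar features, GADD45A also after recentring on the median of all features. LATS2, the kinase gene through which YAP restrains itself, had 11.0 and 13.9 FPKM (ratio 1.26, 1.5 spreads above 0). MYOF (ratio 1.13), DOCK5 (1.09) and ARHGEF17 (1.06) lay within 1 spread. IGFBP3 and FOXF2 were listed at 0 in both cultures, and NT5E and RBMS3 were below 0.2 FPKM.

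Of 14 more targets in wide use, 11 were compared, and 8 of these were higher and 3 lower in 50-cm-high medium (9 and 2 after quantile normalization, where AMOTL1 turned), against 52.6% of all compared features higher. CCND1, which encodes the G1 cyclin D1, was the one past 2-fold, with 45.7 FPKM at 2 cm and 107 FPKM at 50 cm (ratio 2.35, 6.6 spreads above 0). THBS1, the thrombospondin 1 gene, had 111 and 170 FPKM (ratio 1.53). MYC had 57.7 and 88.0 FPKM (ratio 1.53), FSTL1 had 6.87 and 10.4 FPKM (ratio 1.51), and INHBA, the activin subunit gene, had 10.7 and 15.4 FPKM (ratio 1.43). These 5 genes lay 2.3 to 6.6 spreads above 0, where 5.02% of all compared features lay more than 2 spreads above, and all 5 stayed beyond 2 spreads under each scaling tried. BIRC5, the survivin gene, had 156 and 154 FPKM, and LIMA1 had the lowest ratio, 0.796, with 93.6 and 74.5 FPKM. EDN1 (ratio 1.12), TEAD1 (1.08) and AMOTL1 (0.992) lay within 1 spread.

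**Figure D4:**
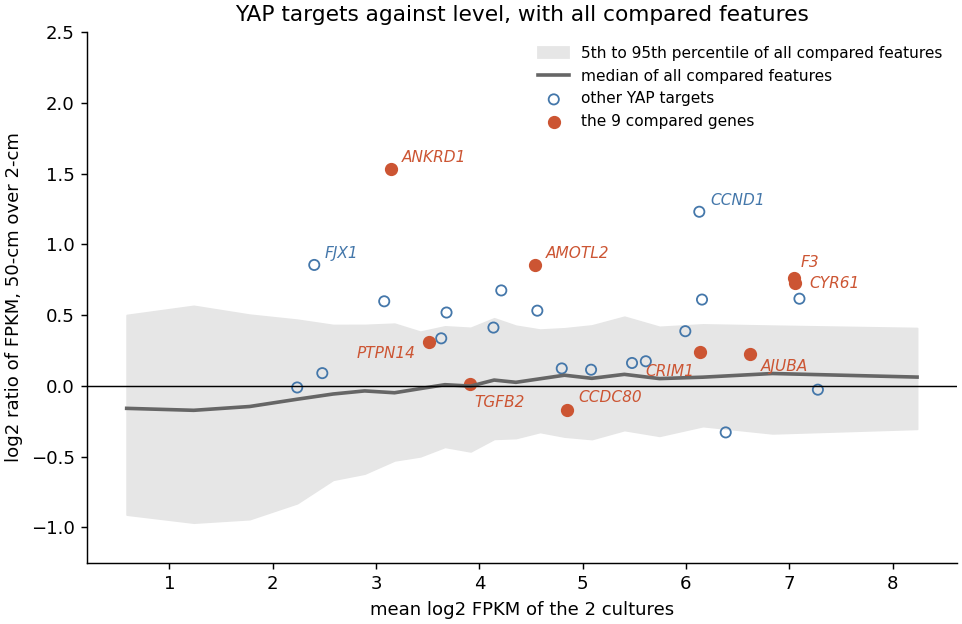
Log2 ratio of FPKM, 50-cm over 2-cm, against the mean log2 FPKM of the cultures for the 9 compared genes (filled points) and 19 other YAP targets (open points), over the median and the 5th to 95th percentile of all compared features in 20 bins of level. The band narrows and its median moves from below 0 to above 0 as level rises, and ANKRD1, AMOTL2, F3 and CYR61 lie above it, as do several of the other targets, among them CCND1, FJX1, THBS1, MYC, FSTL1, NUAK2 and INHBA.

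The factors that drive the targets had no ratio beyond 2 spreads as deposited, where 5.02% of all compared features lay above and 5.25% below. YAP1 had 37.2 and 38.6 FPKM (ratio 1.04). WWTR1, the TAZ gene, had 130 and 101 FPKM (ratio 0.778, 1.9 spreads below 0) and passed 2 spreads below 0 under recentring, rescaling to a common sum, quantile normalization and the deviation from the median of similar features. TEAD1 was the most abundant TEAD gene, with 32.5 and 35.2 FPKM, and TEAD2, TEAD3 and TEAD4 had ratios of 0.825, 0.948 and 1.21. Of 16 upstream Hippo genes compared beside AMOTL2, PTPN14 and AJUBA, none lay beyond 2 spreads, where 5.02% of all compared features lay above and 5.25% below. Their ratios ran from 0.868 (TAOK1) to 1.28 (FRMD6).

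The genes that lie next to the 10 on the chromosome were also read, a comparison made after the values of the 10 had been seen. All 10 matched 1 gene each in the RefSeq annotation of the dog assembly UU_Cfam_GSD_1.0, CYR61 under the name CCN1, and the nearest listed protein-coding gene on either side gave 20 neighbours. Of these, 19 were above 1 FPKM in both cultures, with ratios of 0.613 to 1.24. None lay more than 2 spreads above 0 and 1 lay more than 2 spreads below. Of all compared features, 5.02% lay above and 5.25% below, and the counts of neighbours are given as description only. RPP30 and PCGF5 beside ANKRD1 had ratios of 1.15 and 0.916, RYK and ANAPC13 beside AMOTL2 had 1.08 and 0.855, and ZNHIT6 and DDAH1 beside CYR61 had 1.05 and 0.795. Beside F3, ABCD3 had a ratio of 0.875, and SLC44A3 went from 10.8 to 6.63 FPKM, a ratio of 0.613 that lay 2.7 spreads below 0.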

How the data were processed

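MDCK RNA was sequenced from 1 culture in 2-cm-high and 1 in 50-cm-high medium, as labelled. The authors made stranded mRNA libraries, read 75-base single ends, used SAMtools 0.1.19, Bowtie 2 2.2.3 and TopHat 2.0.13 for mapping to the dog genome CanFam3.1, and deposited FPKM values from Cuffnorm 2.2.1. The annotation, the strand setting and the scaling method are not given in the sources used here. FPKM depends on all other transcripts, so a change in abundant genes shifts the rest, and library depth as a read number is unknown.

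Ratios used no pseudocount and a minimum of 1 FPKM in both cultures. With 1 sample per group no test was made and no p-value is given. The value of 1 read was the commonest ratio, to within 0.2%, among 574 features below 0.1 FPKM, found in 219 of them. The genes and lists were chosen with earlier results of these data known. The named genes are the 10, list genes past 2-fold or 2 spreads, the extremes of each list, and relatives. Further list genes were named after their values were seen. Alternatives covered pseudocounts, scaling, the minimum and the spread. The scripts were tested on simulated data. Neighbouring genes were read from a dog gene table of another build, and genomic sequences were not used here. Python 3.11.15, numpy 2.4.6, pandas 2.3.3, scipy 1.17.1 and matplotlib 3.10.9 were used. The values of 1 listed gene, which is included in the counts, are not reported here.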

Additional observations from a re-analysis of the deposited data

How the results depend on the processing

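All 28 recomputed counts and medians over the 9 genes, and all 45 recomputed log2 ratios of single genes, kept their direction where one was called and moved by less than the spread or, for counts, by less than 1.5 times. ANKRD1, AMOTL2, F3 and CYR61 were the genes beyond 2 spreads under every alternative run. The median log2 ratio ran from 0.28 to 0.33. The number of genes higher was 7 after rescaling to a common sum, where TGFB2 turned, and 9 when every value above 0 FPKM was accepted, where AXL joined. No paired analysis was possible because each group has 1 culture, and for the same reason no replicate could be left out. The unknown read number limits what the lowest values, AXL above all, can show.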

Other observations

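The transcription factor SRF and its MRTF cofactors answer to the state of actin and share ANKRD1 and CYR61 with YAP as targets. A list of 22 genes held other targets of SRF, whether or not they need MRTF, and the factor genes SRF, MKL1 and MKL2. Of the 22, 16 were above 1 FPKM in both cultures. Of these 16, 12 were higher and 4 lower in 50-cm-high medium, where 52.6% of all compared features were higher. Their median log2 ratio was 0.13, against 0.01 for all compared features. This list too was chosen with earlier results of these data known, and a difference from the YAP targets was not tested. FLNA, the filamin A gene, had 136 and 187 FPKM (ratio 1.37, 2.5 spreads above 0), ACTB had 636 and 824 FPKM (ratio 1.30, 2.7 spreads) and ACTG1 had 1807 and 2274 FPKM (ratio 1.26, 2.4 spreads). ACTG1 fell within 2 spreads after quantile normalization and when the deviation was taken from the median of similar features. The early response gene EGR1 went the other way, from 14.5 to 7.33 FPKM (ratio 0.505, 4.0 spreads below 0), and FOS had 12.0 and 9.50 FPKM (ratio 0.790). Beyond 2 spreads there were thus 3 of the 16 above 0 and 1 below, against 5.02% and 5.25% of all compared features. VCL (ratio 0.986) and ZYX (1.07), genes of focal adhesion proteins, lay within 1 spread, and ACTA2, TAGLN, TPM2, CNN2 and FHL1 were below 1 FPKM in both cultures, FHL1 with 0.997 and 0.491 FPKM, and CNN1 was listed at 0.

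The features nearest to ANKRD1 in their pair of log2 FPKM values were OSGIN1 (5.74 and 13.05 FPKM, log2 distance 0.25), SLC11A1 (5.76 and 11.8 FPKM, 0.38) and SNAI1 (6.86 and 13.4 FPKM, 0.43). The distance rests on 2 samples.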
